A study of Zea mays with 14 samples.

Results

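In roots of maize (Zea mays) seedlings, the histone mark H3K36me3 was set against the level of mRNA, gene by gene. The genes described are the gene models of the deposited root table with an mRNA value above 0. They number 44187 of 186790 models, or 23.7%. All of them come from 2 libraries of the series' 14, one of chromatin precipitated with an H3K36me3 antibody and one of mRNA. Both were made from roots of the inbred line B73, harvested at 14 days, with tissue pooled from several seedlings and no treatment or mutation named. Shoots of seedlings raised the same way gave the shoot libraries used below for comparison. Each assay had 1 library per organ, so no difference between libraries or classes has a replicate check. Intervals cover the counting of gene models only and treat those models as independent.

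H3K36me3 is trimethylation of lysine 36 of histone H3. In plants, as in yeast and animals, it is placed by SET domain methyltransferases and is known as a mark of the bodies of transcribed genes, where it is linked to elongating RNA polymerase II. H3K4me3 and H3K9ac, used here for comparison, are known as marks of the starts of active genes. The identifiers of the tables did not match any name of the reference table used here, so genes are given by identifier and root marker genes were not looked up. No sequence was read for them.

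The mRNA value is the mean depth of reads per covered base, and the mRNA length is the number of bases the authors list as covered. No label or header states how a base came to be listed, and covered length can depend on how many reads a transcript received as well as on its own length. Summed over models, root mRNA coverage corresponded to 21406798 reads of 35 bases. The lowest listed value was 2.53, the median 6.11 and the highest 29909.5, and genes outside this set are listed at 0 and not shown to be silent. Expressed genes were cut into 20 equal classes of mRNA value, from class 1 (values of 2.53 to 2.71) to class 20 (from 50.88 upward), each with 2142 to 2269 genes. A gene was counted as marked when it had any H3K36me3 length. The marked length is the number of bp of H3K36me3 listed for the gene. The root peak list held 27069 peaks with a median length of 915 bp.

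Expressed genes carried H3K36me3 far more often than genes listed at 0, and the share was moderately higher in the most than in the least expressed class. Roots hold many cell types, and fewer cells expressing a gene cannot be told apart from less RNA per cell. Of the 44187 expressed genes, 17695 were marked, or 40.05% (95% Wilson interval 39.6 to 40.5%). Over all gene models the share was 14.0%, and among the 142603 genes listed at 0 it was 5.91% (5.78 to 6.03%). In class 1 the share was 29.6% (27.7 to 31.6%). It was 34.3% in class 5 (32.3 to 36.4%), 39.8% in class 10 (37.8 to 41.8%) and 44.9% in class 15 (42.9 to 47.0%). In class 20 it was 47.6% (45.5 to 49.7%), close to the 48.5% of class 16 (46.4 to 50.5%). The difference between class 20 and class 1 was 18.0 percentage points, while their median mRNA values were 83.34 and 2.62. Most of it lay below class 9, where the share had reached 42.7% at a median value of 5.22. From class 9 to class 20 the shares lay between 39.8% and 48.5%, and the interval of class 9 (40.6 to 44.7%) overlapped that of class 19 but lay below those of classes 16 and 20.

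**Figure D1:**
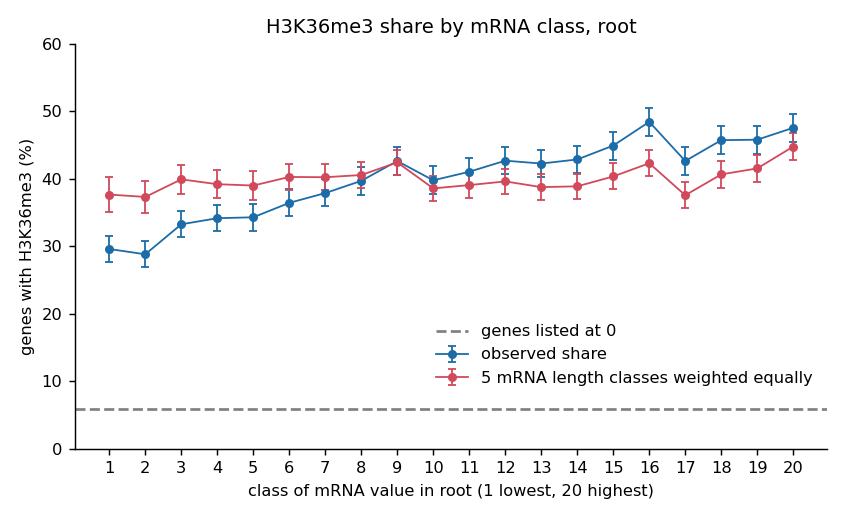
Share of root genes with H3K36me3 (y axis, percent) in 20 equal classes of mRNA value (x axis, class 1 lowest), as observed with Wilson 95% intervals (blue) and with the 5 classes of covered mRNA length given equal weight (red, bars are 95% intervals of the weighted share). The observed share goes from 29.6% to 47.6% and the equal-weight share from 37.7% to 44.8%, and the dashed line marks the 5.91% of genes listed at 0.

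The most expressed class was not uniform. With class 20 cut into 5 equal parts, H3K36me3 was on 52.3% of the part with values of 50.88 to 60 (95% Wilson interval 47.6 to 56.9%). It was on 42.3% of the part above 153 (37.8 to 47.0%). The parts between had 48.0%, 44.0% and 51.4%, so that the order was not steady.

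The length of covered mRNA separated marked from unmarked genes much more widely than the mRNA value did. Any H3K36me3 length counted, so a longer gene has more bp on which the mark can be listed. How much of the gradient goes with this was not tested. For H3K4me3 in root, known as a mark of gene starts, shares also differed by covered length. They were 22.7% in the shortest and 71.0% in the longest of 5 classes. In 5 equal classes of mRNA length, H3K36me3 was on 13.4% of genes covered over 35 to 296 bp (95% Wilson interval 12.7 to 14.1%). The share was 28.7% at 297 to 577 bp, 41.2% at 578 to 932 bp and 53.0% at 933 to 1474 bp. It was 64.0% at 1475 to 9604 bp (63.0 to 65.0%). With 20 length classes the share went from 4.78% below 92 bp (3.96 to 5.75%) to 66.8% above 2403 bp (64.9 to 68.8%). The class below that, at 1946 to 2403 bp, had 66.8% as well (64.8 to 68.7%). The median mRNA value was 3.89 in the shortest and 10.2 in the longest of these 20 classes. The quartiles over all expressed genes were 3.76 and 12.655, so mRNA value differed along the length classes too.

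Genes with more mRNA were also covered over more bases, and within classes of equal covered length the difference between high and low mRNA was smaller. Across the 44187 expressed genes Spearman's rho between mRNA value and mRNA length was 0.275. This describes 1 mRNA library, since both measures come from the same reads. Equal weight by covered length can thus also take out part of a difference by mRNA value. Classes of model span, given below for a subset of genes, had a different outcome. The median covered length was 419 bp in class 1 and 855 bp in class 20, with the highest median, 1009.5 bp, in class 16. When the 5 length classes were given equal weight in every mRNA class, H3K36me3 was on 37.7% of genes in class 1 (95% interval 35.1 to 40.3%). The corresponding share was 44.8% in class 20 (42.7 to 46.8%). The difference was then 7.11 percentage points instead of 18.0, and 3.87 instead of 16.2 between classes 19 and 1. Without repeated gene models it was 1.25, from 36.2% to 37.5%. Without genes that repeat both mRNA and H3K36me3 values, an alternative added after the data were seen, it was 1.90. Both settings drop unmarked repeats, which made up 40.8% of unmarked genes in class 1 and 0% in class 20. Dropping unmarked genes raises a share by construction. Leaving out only marked repeats, also added after the data were seen, gave 6.14. Genes with mRNA in both organs gave 5.36, marking from 500 bp 7.01, and mRNA of at least 2 times the lowest value -0.102. Across all 20 classes of the full set the equal-weight share lay between 37.3% and 44.8%.

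Inside single length classes the share had no steady order over mRNA classes, although class 20 was above class 1 in all 5. Among genes covered over 578 to 932 bp, H3K36me3 was on 42.7% in mRNA class 1 and on 46.1% in class 20, with a lowest share of 34.2% in class 17. Among the longest covered genes the share was 53.9% in class 1 (95% Wilson interval 44.3 to 63.3%), which held 102 genes, 69.8% in class 9 (65.2 to 74.1%) and 61.0% in class 20 (56.6 to 65.2%). At 933 to 1474 bp it was 43.9% in class 2 (38.2 to 49.7%) and 59.0% in class 9 (54.7 to 63.3%). Among the shortest covered genes it was 12.2% in class 1 (10.1 to 14.7%) and 22.9% in class 20 (17.9 to 28.8%). That group had the widest difference between these 2 mRNA classes, 10.7 percentage points, against 3.42 to 7.45 in the other length classes. Within any single mRNA class the longest covered genes were marked more often than the shortest by 38.1 (class 20) to 57.5 percentage points (class 9).

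**Figure D2:**
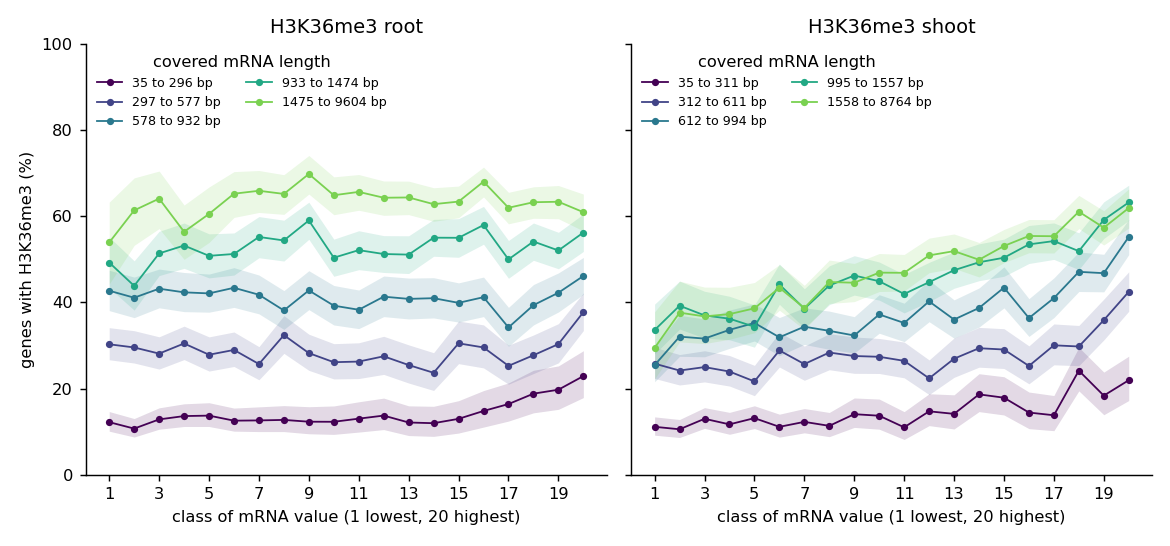
Share of genes with H3K36me3 (y axis, percent) across 20 classes of mRNA value (x axis), drawn apart for 5 equal classes of covered mRNA length, in root (left) and shoot (right); shaded bands are Wilson 95% intervals. In root the 5 lines are stacked by length, and from class 1 to class 20 they go from 12.2% to 22.9% in the shortest class and from 53.9% to 61.0% in the longest, whereas in shoot the longest class goes from 29.5% to 61.9%.

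The lengths listed for a subset of genes allowed the same look at the gene itself and not only at its covered part. A model of the typed gene table, with a span on its contig, could be matched to 3572 expressed genes (8.08%) through coverage and covered length. This subset is weighted toward high expression, with 64.0% of it in mRNA classes 19 and 20. H3K36me3 was on 25.0% of genes with a span of 80 to 977 bp (95% Wilson interval 22.0 to 28.3%). It was on 46.9% at 983 to 2097 bp, 60.1% at 2098 to 3466 bp, 63.9% at 3469 to 5526 bp and 71.1% above that (67.7 to 74.4%). The number of separate blocks listed for a model gave a like series. The share was 29.0% with 1 or 2 blocks (26.0 to 32.2%) and 70.7% with 22 or more (67.3 to 73.9%). By mRNA value the shares of this subset had no steady order, with 52.2% in the lowest of 5 classes (48.6 to 55.9%), 60.4% in the next (56.8 to 63.9%) and 48.7% in the highest (45.1 to 52.4%). Within span classes the share was higher in the highest than in the lowest of 5 mRNA classes in 4 of the 5, with intervals that did not overlap. It was 6.49% (2.81 to 14.3%) and 26.8% (21.9 to 32.4%) in the shortest span class. At 983 to 2097 bp it was 23.7% (16.2 to 33.2%) and 58.7% (51.9 to 65.1%). At 2098 to 3466 bp it was 40.2% (30.3 to 51.1%) and 64.3% (56.5 to 71.4%), and at 3469 to 5526 bp 50% (41.6 to 58.4%) and 78.6% (66.2 to 87.3%). The longest span class ran the other way, with 74.8% of 330 genes (69.9 to 79.2%) and 41.7% of 24 genes (24.5 to 61.2%). Over the whole subset the highest mRNA class was below the lowest, but it was above it in 4 of the 5 span classes. Equal weight by covered length had instead narrowed the difference in the full set. The 2 sets and their classes differ, and the cause of the unlike outcomes was not tested. Span and covered length had a rho of 0.847, so these views are not independent of each other.

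**Figure D3:**
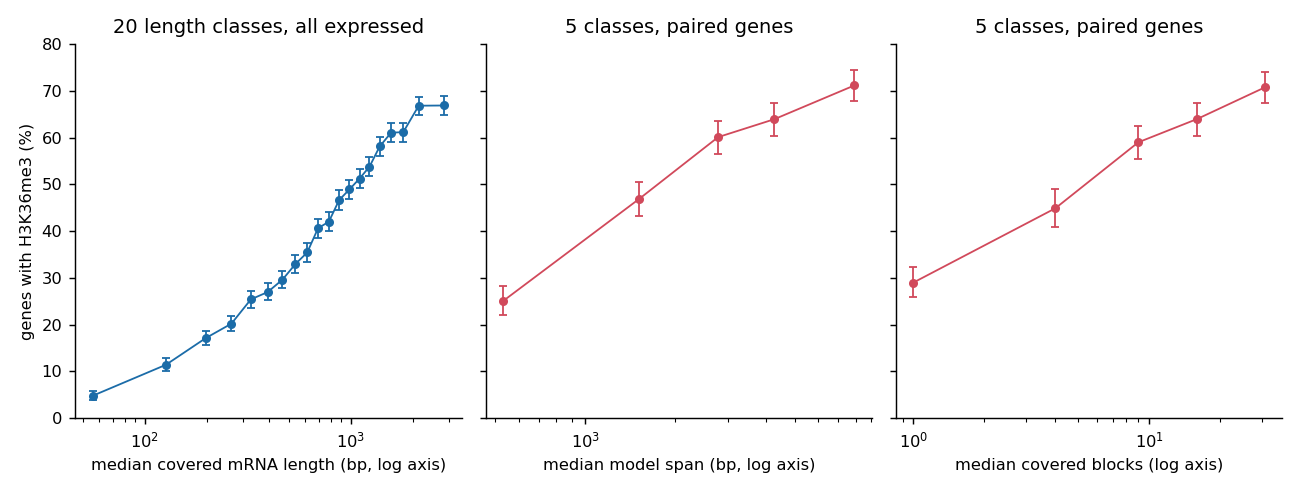
Share of expressed root genes with H3K36me3 (y axis, percent, Wilson 95% intervals) against the median covered mRNA length of 20 classes (left), the median model span of 5 classes (middle) and the median number of covered blocks of 5 classes (right), all on log x axes. The left panel holds all 44187 expressed genes and goes from 4.78% to 66.8%, and the other panels hold the 3572 genes with a matched model.

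Over all marked genes, the number of marked bp hardly followed the mRNA value. Over the 17695 marked genes the median marked length was 969 bp (95% interval 959 to 976 bp), with quartiles of 717 and 1361 bp and extremes of 153 and 8917 bp. Medians of the 20 classes lay between 871 and 1007 bp. The lowest was that of class 20 (846 to 894 bp), and class 1 had 895 bp (839 to 940 bp), so the 2 ends had overlapping intervals. Classes 10 to 16 were at 989 to 1007 bp. Marked genes listed at 0 for mRNA had a median of 884 bp (871 to 897 bp), inside the range of the expressed classes. Spearman's rho between mRNA value and marked length was -0.0119 over all marked genes and -0.111 to -0.0320 within the 5 length classes. It was -0.327 in the 1908 marked genes with a matched model, and 0.150 over all marked genes when mRNA depth, which grows with covered length, took the place of the mRNA value.

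Marked length did go with covered length, but less than in proportion. Its median was 759 bp in the shortest length class (95% interval 737 to 786 bp) and 1159.5 bp in the longest (1136 to 1183 bp), and rho between both lengths was 0.307. Median covered lengths of all genes in these classes were 163 and 1945 bp. The marked length exceeded the covered mRNA length in 99.6% of marked genes of the shortest class and in 15.0% of the longest. The median ratio of marked to covered length was 3.92 and 0.567 in these classes. In marked genes with a matched model, marked length was a median of 0.313 of the span and exceeded the span in 10.2% of 1908 genes, so the listed length is not bounded by the model. The rank correlation of marked length in these genes was 0.430 with covered mRNA length, 0.362 with span and 0.310 with covered blocks.

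Depth per marked bp, the signal over the marked stretch with no input library set against it here, differed less between mRNA classes than within them. It is coverage after the authors' scaling, in which every root H3K36me3 depth was a whole multiple of 0.687 within a tolerance of 0.05 steps. The median over marked genes was 1.32 (95% interval 1.31 to 1.33), and genes listed at 0 had 1.14 (1.12 to 1.15). By class it was 1.17 in class 1 (1.13 to 1.22), 1.40 in class 17 (1.37 to 1.44) and 1.26 in class 20 (1.21 to 1.30). All other classes lay between these values of classes 1 and 17. The spread within a class was wider than these differences, with quartiles of 0.981 and 1.64 in class 20. The rank correlation with mRNA value was 0.0409 over all marked genes and between -0.0506 and 0.0457 within length classes. With covered length rho was 0.218, and the medians were 1.15 in the shortest and 1.46 in the longest length class. Longer marked stretches had more depth per bp, with a rho of 0.590 between marked length and depth per marked bp. These 2 measures share the marked length and come from 1 library.

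**Figure D4:**
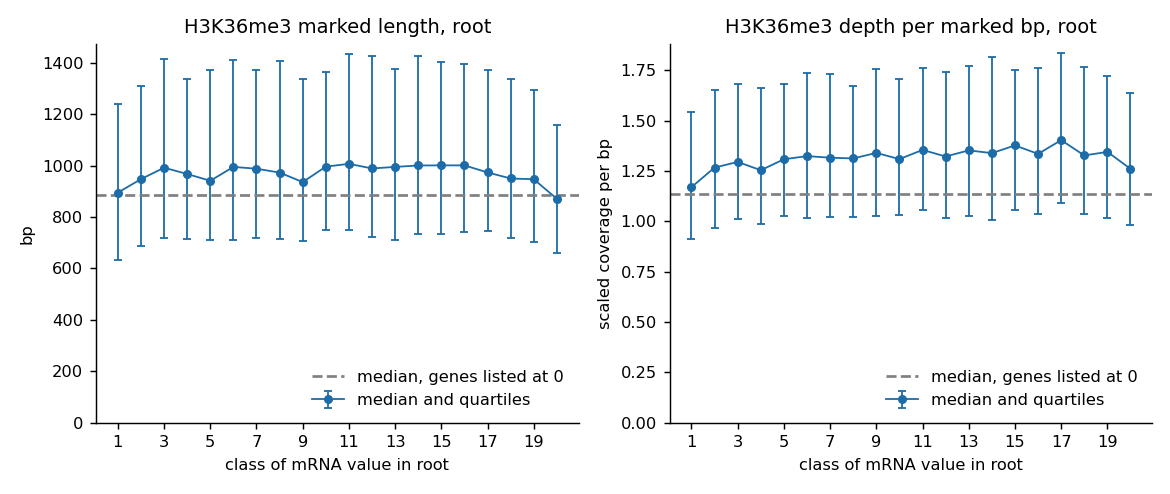
Marked length in bp (left) and H3K36me3 depth per marked bp, in scaled coverage (right), of marked root genes in 20 classes of mRNA value; points are medians, bars run from the lower to the upper quartile, and dashed lines are the medians of marked genes listed at 0. Class medians stay between 871 and 1007 bp and between 1.17 and 1.40, inside the quartiles of every other class.

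Expressed genes held 69.8% of the H3K36me3 depth summed over all gene models. Class 20 held 3.37% of it and class 1 held 2.15%, and the highest single share was the 4.22% of class 16. Depth listed alike for several models is counted for each, and 32.6% of marked expressed genes repeated an earlier one.

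Marked genes mostly carried marks of active gene starts, and more often in the highest than in the lowest mRNA class. Covered length was not held equal in these shares. H3K4me3 was on 82.2% of the 17695 marked genes (95% Wilson interval 81.7 to 82.8%) and on 29.3% of the 26492 expressed genes without H3K36me3 (28.7 to 29.8%), compared with 19.8% of all gene models. H3K9ac was on 64.6% (63.9 to 65.3%) and 16.7% (16.3 to 17.2%), compared with 12.1% of all models. Among marked genes H3K4me3 was on 76.6% in class 1 and 91.1% in class 20, and among unmarked genes on 24.1% and 49.2%. For H3K9ac these shares were 52.8% and 74.6% among marked genes, and 11.3% and 32.6% among unmarked genes. Of the unmarked genes in class 20, 53.5% had H3K4me3 or H3K9ac (50.6 to 56.3%), compared with 33.1% of all expressed genes without H3K36me3. The rest of class 20 without H3K36me3 thus had mRNA at 50.88 or more with none of these 3 marks listed. The Polycomb mark H3K27me3 was on 0.531% of marked genes (0.434 to 0.650%) and 2.48% of unmarked genes (2.30 to 2.68%). DNA methylation, read from fragments released by the enzyme McrBC, was on 3.23% (2.98 to 3.50%) and 2.43% (2.25 to 2.62%). For H3K27me3 and DNA methylation the share over all gene models was not computed, so neither is called high or low here.

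H3K36me3 in shoot was more frequent where root mRNA was high, both among root genes with the mark and among those without it. Neither covered length nor shoot mRNA was held equal in these shares. Of all marked root genes 65.3% also had H3K36me3 in shoot (95% Wilson interval 64.6 to 66.0%), as did 12.01% of expressed root genes without it (11.6 to 12.4%). By class, 57.0% of the marked genes in class 1 had the mark in shoot (53.1 to 60.8%), 61.0% in class 10 (57.8 to 64.2%) and 79.2% in class 20 (76.6 to 81.5%). Among unmarked root genes the shoot mark was on 9.54% in class 1 (8.16 to 11.1%) and 22.0% in class 20 (19.7 to 24.5%). In shoot 11.5% of all gene models were marked.

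Compared with H3K36me3 in shoot and with H3K4me3 and H3K9ac in root, H3K36me3 in root had the smallest difference between the ends of the mRNA range. In shoot, H3K36me3 was on 21.3% of genes in class 1 (95% Wilson interval 19.6 to 23.0%) and 52.2% in class 20 (50.1 to 54.3%), a difference of 31.0 percentage points against 18.0 in root. With equal weight for length classes the difference was 23.9 points for shoot and 7.11 for root. The H3K4me3 library of root had 29.5 as observed and 19.1 at equal weight, and the H3K9ac library of root 29.0 and 20.4. Covered length separated marked genes in all 4 libraries. From the shortest to the longest class, shares were 13.5% and 49.9% for H3K36me3 in shoot, 22.7% and 71.0% for H3K4me3 in root and 14.8% and 52.8% for H3K9ac in root. Marked length of H3K36me3 in shoot had a rho of 0.0868 with mRNA value, and depth per marked bp 0.133. Each of these values rests on 1 library, and the differences between libraries could not be tested.

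**Figure D5:**
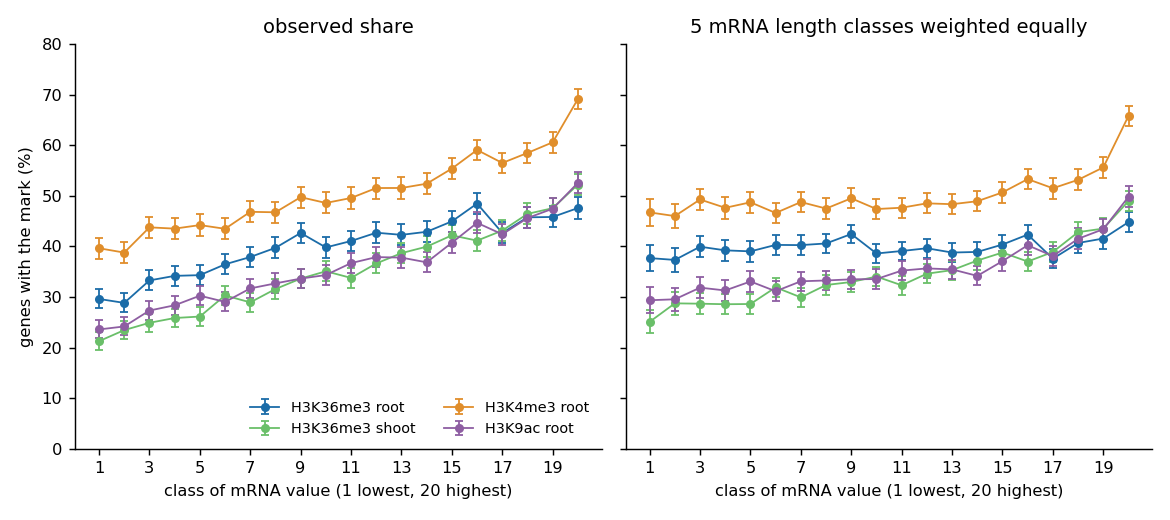
Share of expressed genes with a mark (y axis, percent) across 20 classes of mRNA value of the same organ (x axis), as observed (left, Wilson 95% intervals) and with 5 classes of covered mRNA length weighted equally (right, 95% intervals of the weighted share), for H3K36me3 in root and shoot and H3K4me3 and H3K9ac in root. At equal weight, H3K36me3 in root goes from 37.7% to 44.8% and H3K4me3 in root from 46.7% to 65.8%.

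The size of the root difference depended on the weakest expressed genes and on whether unmarked repeats of gene models were kept. Among the 26119 genes with at least 2 times the lowest listed mRNA value, again in 20 classes, H3K36me3 was on 43.1% in the lowest and 46.1% in the highest class. At equal length weights the shares were 46.3% and 46.2%. The other 3 libraries kept equal-weight differences of 15.4 to 16.0 percentage points under this filter, a comparison chosen after the data were seen. Of the marked genes, 32.6% repeated the H3K36me3 length and depth of an earlier marked gene, so that 1 peak can count for several models. Across mRNA classes this was 28.2% to 37.2%. In the 3228 sets of exactly 2 expressed genes with equal H3K36me3 values, the mRNA values lay within 2-fold of each other in 81.7%. The corresponding share among other pairs of genes was not computed. Leaving out only marked repeats was an alternative added after the data were seen. The shares were then 22.9% in class 1 and 39.2% in class 20, a difference of 16.3 percentage points against 18.0 in the full set. When unmarked genes with repeated mRNA length and depth were left out as well, as planned, the shares were 33.5% and 39.0%. Such unmarked repeats made up 40.8% of unmarked genes in class 1 and 0% in class 20. Dropping them thus raises the share of the lowest class by construction.

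The genes of highest mRNA value were picked separately among genes with and without H3K36me3. Presence or absence of the mark in them thus follows from the choice. Zm0131216 had 289083 reads in root, a mean depth of 21482 over 471 covered bp, and no H3K36me3, H3K4me3, H3K9ac, H3K27me3 or DNA methylation listed in either organ. In shoot it had 21297 reads. Zm0085539 had 288898 reads in root and 21102 in shoot over 474 and 423 bp, also with none of the 5 marks listed. The near-equal values of both genes leave them uncertain as separate cases, since reads that match both could have been counted for each. Among marked genes, Zm0020449 had the highest mRNA value, 29909.5, but over only 70 covered bp, with 59819 reads in root and 65784 in shoot. It had all 5 marks listed in both organs, with 153 bp of H3K36me3 in root at a depth of 86.3 per marked bp, the highest of all marked genes. Its summed root depths were also 79757.9 over 172 bp for H3K4me3 and 34935.7 over 97 bp for H3K27me3. They were 22724 over 134 bp for DNA methylation and 2172.42 over 102 bp for H3K9ac. High depth at this gene was thus not particular to H3K36me3, and its cause was not tested. Zm0032843 came next among marked genes, with 71501 reads over 1002 bp in root and a mean depth of 2498. Its H3K36me3 covered 663 bp in root and 805 bp in shoot, and the root depth of 0.798 per marked bp was below the lower quartile of class 20. H3K4me3 spanned 1457 bp of this gene in root.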

How the data were processed

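Per the labels' protocols, chromatin was immunoprecipitated from pooled seedling tissue, DNA of parallel reactions was pooled, and mRNA was purified on oligo(dT) beads. No label or header names the aligner, the peak caller, the genome build or the annotation. The deposited gene tables give, per the file headers, a length and a depth for each mark and for mRNA. The deposited depths are signal (summed base coverage), and those of H3K36me3 in root carry 1 scaling factor of unstated basis. The authors' mRNA value equals depth over length to within 0.005. Samples were grouped by title, and the members and lists were chosen with earlier results of these data known. Classes were equal by rank with ties kept together. Shares have 95% Wilson intervals, medians order-statistic intervals, and equal-weight shares are means over 5 length classes with a normal interval for stratified proportions. Identifiers of both organs, padded with unequal zeros, were joined on their numeric part. Models were matched where the coverage summed over both organs and the covered length allowed 1 pair. With 1 library per group no test was made, so rho has no p-value. Class shares and matching were tested on simulated data, in which marks or coverage were drawn independently for each gene. Models built to share values were not simulated, so the accuracy of the real matches is not known. The named genes are the 2 of highest mRNA value with H3K36me3 and the 2 without, repeats passed over. The name table matched 0 identifiers. Small RNA libraries were not used here. Python 3.11.15, pandas 2.3.3 and scipy 1.17.1 were used.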

Additional observations from a re-analysis of the deposited data

Results flagged for a closer look

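The rank correlation of marked length with mRNA value over all marked genes differed in sign between the 2 organs, which each had 1 library. Spearman's rho between mRNA value and H3K36me3 marked length was -0.0119 in root and 0.0868 in shoot. The median marked length of the highest mRNA class minus that of the lowest was -24 bp in root and 168.5 bp in shoot. The difference between organs was not tested, and the root value lies close to 0.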

How the results depend on the processing

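Of 134 values recomputed for 17 results, 65 stayed inside the 95% interval of the reported value, 65 lay outside it and 4 changed sign; the causes were not tested. No paired analysis was possible because each assay has 1 library per organ, and no replicate could be left out. Equal-weight shares of the lowest class could not be computed when genes were ranked by mRNA depth, since a length class was empty. Values below are for the lowest and highest mRNA class, then the shortest and longest length class. Without repeated gene models (34559 kept), shares were 33.5% and 39.0%, and the highest class had 37.5% at equal weight, 901 bp and 1.33 depth per bp. By length the shares were 15.1% and 57.4%, and the longest class had 1212 bp and a depth of 1.50. With mRNA at least 2 times the lowest value, the lowest class had a share of 43.1%, 46.3% at equal weight, 966 bp and a depth of 1.36. Length classes had 18.0% and 65.5%, with a depth of 1.49 in the longest. Rank correlations with mRNA were -0.0585 for marked bp, -0.0434 for depth and -0.0151 for depth per bp, and the last 2 changed sign. With mRNA in both organs (36465 genes), the lowest class had 34.3%, 41.3% at equal weight and a depth of 1.25. Length classes had 17.3% and 66.2%, and rho was -0.0303 for marked bp, -0.0118 for depth, a change of sign, and 0.0116 for depth per bp. Ranked by mRNA depth, which grows with covered length by construction, shares were 5.97% and 56.7%, marked lengths 726.5 and 1014 bp, and depths per bp 0.972 and 1.40. Rank correlations with mRNA were then 0.150 for marked bp, a change of sign, 0.162 for depth and 0.137 for depth per bp. Counting genes as marked from 500 bp gave 26.1% and 43.5%, 34.0% and 41.0% at equal weight, 966 and 910 bp, and a lowest-class depth of 1.23. Length classes had 10.9% and 62.0%, 854 and 1187 bp, and 1.27 depth per bp in the shortest. With 10 mRNA classes the highest had 902 bp. With 10 length classes the ends had 8.11% and 66.8%, 677 and 1246 bp, and depths of 1.07 and 1.50. Alternatives added after the data were seen left out repeats in other ways. Without genes repeating both mRNA and H3K36me3 values, which dropped 0 marked genes, the lowest class had 41.5%, 44.4% at equal weight, and the shortest length class 22.4%. Without marked repeats, shares were 22.9% and 39.2%, and 29.6% and 35.7% at equal weight, with 901 bp and a depth of 1.32 in the highest class. Length classes had 8.33% and 56.6%, depths of 1.19 and 1.49, and 1202 bp in the longest.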
